A study of Mus musculus with 6 samples.

Results

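The mouse genes named like 1700030C10Rik, 4921524J17Rik, 4930452B06Rik or 4933402E13Rik, with 1 of these 4 starts of 4 digits and the ending Rik, were followed in Morc3 knock-out (ko) and wild-type embryonic stem (ES) cells. A gene was kept when its sense-strand read counts summed to 30 or more over the 6 RNA-seq libraries, which held for 99 of the 800 genes with such symbols among the 24054 genes of the count tables. ES cells are pluripotent cells of the early embryo grown in culture, and Morc3 belongs to the MORC family of nuclear ATPases that the study examined as a silencer of endogenous retroviruses. The 3 ko libraries came from the clones KO27-1, KO27-2 and KO27-3, here ko 1, ko 2 and ko 3, each of which is a single clone that was edited with Cas9, starting from the wild-type line, and carries a Morc3 knock out. The 3 wild-type libraries came from cultures of the line WT26 named p42, p43 and p56, where the meaning of the p is not given in the labels. All 6 cultures were grown without feeder cells on gelatin in medium with serum and LIF.

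RIKEN clone symbols were given to mouse genes that were first known only from a full-length cDNA clone, and the leading digits name the cDNA library. The 4 starts used here stand for libraries of adult testis, a tissue in which germ cells going through meiosis and sperm formation transcribe many genes that are silent in most other cells. The symbol therefore says where a transcript was first cloned and not where it is expressed, and a part of these genes has since received names for roles in the cilium, in metabolism or as long noncoding RNAs (lncRNAs).

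Most of these genes gave few or no reads in ES cells at this depth. Of the 800 genes, 468 (58.5%) had no sense count in any library, 233 had between 1 and 29 counts in all, and 99 (12.4%) reached 30. By start of the symbol, 52 of 342 genes named like 1700030C10Rik, 3 of 28 named like 4921524J17Rik, 30 of 318 named like 4930452B06Rik and 14 of 112 named like 4933402E13Rik reached 30 counts. Among the RIKEN clone genes with other starts, 424 of 1070 (39.6%) did so, and among the predicted genes with Gm symbols 154 of 1159 (13.3%). Over all 24054 genes the share was 54.4%. The testis-library genes were thus detected about as often as Gm genes and less often than the other RIKEN clone genes, with no test of these shares. The count of 30 was reached narrowly by 1700009P17Rik (now Cfap126), a gene for the placement of basal bodies of cilia, and by 1700008I05Rik (now Tcp11x2), a gene of the t-complex protein family on the X chromosome, which had 31 counts each. 1700028J19Rik and 1700017J07Rik, with 29 counts each, fell just outside.

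**Figure D1:**
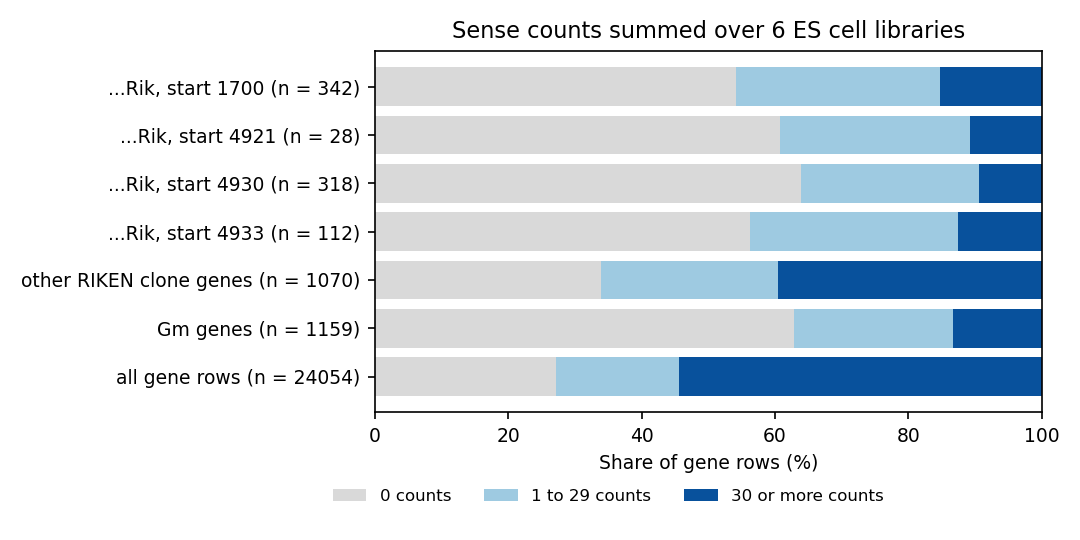
Horizontal bars give the share of gene rows (%) whose sense counts, summed over the 6 libraries, were 0, 1 to 29, or 30 or more, for the 4 symbol starts, other RIKEN clone genes, Gm genes and all gene rows. The dark end of the bar covers 15.2%, 10.7%, 9.43% and 12.5% of the genes in the 4 upper bars, against 39.6% of the other RIKEN clone genes and 54.4% of all rows.

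The 99 genes had 31 to 5227 sense counts in all, with a median of 128. RefSeq lists 58 of them as protein coding, 40 as lncRNAs and 1 as a transcribed pseudogene, and 19 now carry another symbol. They lie on 20 chromosomes, with the most, 12 genes, on chromosome 8. In CPM, the usual unit of read counts after all libraries are brought to the same total, the mean over the 6 libraries ran from 0.411 to 70.4 with a median of 1.72. A mean of 10 CPM or more was found for 26 genes and a mean under 1 CPM for 35. With 10740618 to 14123131 sense counts per library, 1 count was worth less than 0.1 CPM, so the lowest genes rested on a handful of reads per library. The coding genes had a median of 247.5 counts and the noncoding ones of 100, and per kilobase of exon the medians were 1.30 and 0.686 CPM.

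The 8 genes with the highest mean CPM included several with an assigned role in ordinary cells. 1700052N19Rik (now Armt1, an acidic residue methyltransferase, chr10:4429275-4455140) had 69.0, 74.5 and 67.2 CPM in ko 1, ko 2 and ko 3 and 72.0, 70.7 and 68.8 CPM in p42, p43 and p56. 4930453N24Rik (chr16:64762205-64772372) had 67.9, 73.2 and 71.5 CPM in ko and 65.9, 63.4 and 70.3 CPM in wild type. The groups overlapped in both genes. 1700021F05Rik (now Mtres1, a regulator of mitochondrial transcription), 4930427A07Rik (now Tedc1, which takes part in building centriole tubules) and 4933411K20Rik (now Cfap97, a cilium-associated gene) had means of 31.3, 31.1 and 33.2 CPM in ko and of 30.4, 28.7 and 36.5 CPM in wild type. The lncRNA 1700001L05Rik had 37.4 ± 3.79 CPM in ko and 37.9 ± 4.66 CPM in wild type (SD, n = 3). 1700123O20Rik had 46.4 ± 1.18 CPM in ko and 51.0 ± 7.56 CPM in wild type (SD, n = 3), with p56 at 59.7 CPM against 46.1 and 47.1 CPM in p42 and p43. None of these 7 genes passed the test between ko and wild type described next (adjusted p 0.619 to 0.987, edgeR's quasi-likelihood test), with log2 fold changes between -0.14 and 0.12. Per kilobase of exon the order differed, with 25.2 CPM per kb for 1700123O20Rik, 16.6 for 4921524J17Rik, 16.2 for 1700030C10Rik and 11.5 for 4930453N24Rik.

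To find which of these genes differed in level between Morc3 ko and wild-type cells, the 3 ko libraries were compared with the 3 wild-type libraries. The label of the libraries was checked first on Morc3 itself (chr16:93832121-93876077), which had 77.8, 137.9 and 134.6 CPM in ko 1, ko 2 and ko 3 and 276.8, 272.0 and 302.2 CPM in p42, p43 and p56. Its transcript was lower in every ko clone and was not absent. By edgeR's quasi-likelihood test the log2 fold change was -1.28 (SE 0.16, adjusted p 0.000843).

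The default filter on low counts left 73 of the 99 genes to be tested, and the 26 others had at most 60 counts in all. At an adjusted p under 0.01 over all 12222 tested genes, 6 of the 73 were called (8.22%), against 1.28% of all tested genes. 4 rose in Morc3 ko ES cells, where 0.859% of all tested genes did, and 2 fell, where 0.417% of all tested genes did. The genes that rose were the lncRNA 1700030C10Rik, 4930519F16Rik, 4930452B06Rik (now Cfap20dc) and 1700061G19Rik (now Acsbg3). Those that fell were 1700019A02Rik and the lncRNA 4930500J02Rik (now Platr14). The other RIKEN clone genes had 4 calls among 362 tested (1.10%) and the Gm genes 4 among 121 (3.31%). Of all 9104 tested genes within the CPM range of these 73, 119 were called (1.31%). These counts are descriptions, since the genes were taken up with earlier results of these data known. They also include 4930519F16Rik, which passed the limits on counts only through the ko libraries. In RNA from whole cultures, a change in the number of cells that express a gene and a change in RNA per cell cannot be told apart.

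The 73 genes were then described together and without the 6. The median log2 fold change of the 73 genes was 0.045, beside a median of -0.00010 over all tested genes, 0.0089 over other RIKEN clone genes and 0.044 over Gm genes. 42 of the 73 lay above 0 and 31 below. The ko and wild-type libraries did not overlap in CPM for 17 of the 73 genes (23.3%), 11 higher and 6 lower in ko, whereas this held for 19.9% of all tested genes. An unadjusted p under 0.05 was found for 16 of the 73 (21.9%) and for 14.3% of all tested genes. Both counts include the 6 called genes. Of the 67 others, 11 did not overlap (16.4%), 10 had an unadjusted p under 0.05 (14.9%), and the median log2 fold change was 0.041. Among the 43 tested coding genes 4 were called (9.30%) and among the 30 noncoding ones 2 (6.67%), against 1.28% of all tested genes. Summed over all 99 genes, the level was 928, 913 and 920 CPM in ko 1, ko 2 and ko 3 and 879, 865 and 885 CPM in p42, p43 and p56. Without the 6 called genes the sums were 831, 808 and 819 CPM in ko and 818, 808 and 827 CPM in wild type, and the groups overlapped.

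**Figure D2:**
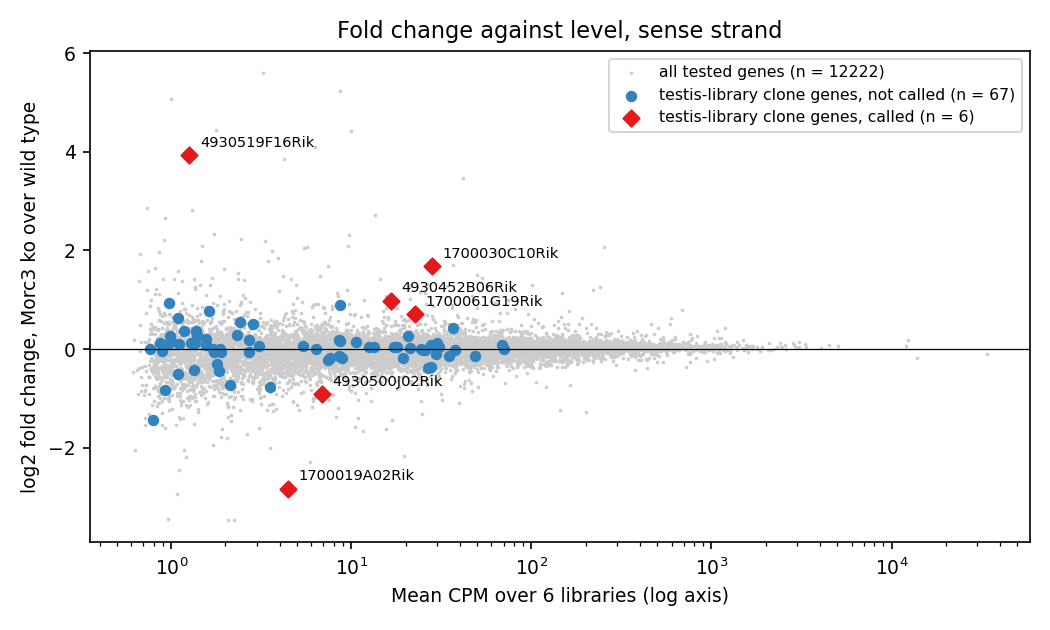
Each point is a tested gene, with its mean CPM over 6 libraries on a log axis and its log2 fold change of Morc3 ko over wild type. Grey points are all 12222 tested genes, blue points the 67 testis-library clone genes that were not called and red diamonds the 6 that were, of which 4930519F16Rik lies highest at 3.93 and 1700019A02Rik lowest at -2.83.

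The gene with the smallest adjusted p was 1700030C10Rik, a lncRNA at chr12:20804389-20815779 on the minus strand (GRCm38). It had 433, 502 and 488 counts in ko 1, ko 2 and ko 3 and 200, 195 and 153 counts in p42, p43 and p56, which is 40.0, 44.3 and 44.3 CPM against 14.5, 13.7 and 11.8 CPM. All ko clones were above all wild-type cultures, and the 3 clones lay close to each other. The mean rose from 13.3 ± 1.37 to 42.9 ± 2.48 CPM (SD, n = 3). EdgeR's quasi-likelihood test gave a log2 change of 1.68 (SE 0.10, adjusted p 1.9e-06). At 16.2 CPM per kb of exon it was also the lncRNA with the highest level per length among those named here.

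1700019A02Rik (chr1:53158573-53187764, minus strand), a protein-coding gene, showed the strongest fall. Its 109, 97 and 113 counts in p42, p43 and p56 stood against 14, 13 and 9 counts in ko 1, ko 2 and ko 3. Wild-type cultures averaged 7.80 ± 0.970 CPM and ko clones 1.09 ± 0.244 CPM (SD, n = 3), with no overlap between the groups. The log2 change by edgeR was -2.83 (SE 0.22, adjusted p 2.0e-05). The summed counts, scaled by library size, gave a 7.16-fold lower level in ko with a 95% interval of 5.06 to 10.4 for counting error only. Some transcript remained in every ko clone.

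4930519F16Rik (chrX:103182978-103256632, minus strand) was close to silent in wild type, with 2, 1 and 3 counts in p42, p43 and p56. It had 20, 34 and 25 counts in ko 1, ko 2 and ko 3, or 1.85, 3.00 and 2.27 CPM against 0.145, 0.0700 and 0.232 CPM. The ratio of the summed counts, scaled by library size, was 16.3 with a 95% interval of 7.16 to 45.7 for counting error only, and the fitted log2 change of 3.93 (SE 0.45, edgeR adjusted p 0.000413) depends on the prior count. RefSeq lists the gene as protein coding and GENCODE as a transcribed unitary pseudogene. Its span covers Nap1l2 on the same strand, a gene without introns for a nucleosome assembly protein. Reads that fall in annotated exons of both genes were counted for neither, as STAR counts only reads of 1 gene. Other reads of the overlap cannot be assigned to 1 of the transcripts with certainty.

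4930452B06Rik, now Cfap20dc, is named for its similarity to a protein of cilia (chr14:8431171-8666336, minus strand). It had 23.3, 21.4 and 21.8 CPM in ko 1, ko 2 and ko 3 and 11.4, 9.73 and 12.5 CPM in p42, p43 and p56. Every ko clone was above every wild-type culture, at 22.1 ± 1.01 against 11.2 ± 1.40 CPM (SD, n = 3). This was a log2 change of 0.98 (SE 0.12, edgeR adjusted p 0.000538). Among the 5 genes on chromosome 14 the level in p56 was 1.18 times the mean of p42 and p43 for 4930452B06Rik, 1.28 times for 1700123O20Rik, 1.29 times for 4930444M15Rik, 0.895 times for 1700108F19Rik and 2.16 times for 1700001G11Rik, the last with too few counts to be tested. On other chromosomes this ratio was, for example, 1.34 for 4933411K20Rik (chromosome 8) and 0.802 for 1700001L05Rik (chromosome 15). A pattern by chromosome was not tested. Without p56 the log2 fold change of 4930452B06Rik was 1.07.

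1700061G19Rik, now Acsbg3, belongs to the bubblegum family of acyl-CoA synthetases, which activate long-chain fatty acids (chr17:56875452-56889855, plus strand). It had 25.7, 30.6 and 27.7 CPM in ko 1, ko 2 and ko 3 and 17.3, 18.2 and 16.1 CPM in p42, p43 and p56. The groups did not overlap, with means of 28.0 ± 2.49 and 17.2 ± 1.08 CPM (SD, n = 3) and a log2 difference of 0.70 (SE 0.10, edgeR adjusted p 0.00248). Its start lies head to head with that of its family member Acsbg2, which had 17 counts in the 3 ko libraries and 30 in the wild-type libraries and could not be tested. The call of 1700061G19Rik was lost without ko 2 (edgeR adjusted p 0.0283), without ko 3 (0.0232) or without p42 (0.0119).

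4930500J02Rik, now Platr14, is one of the lncRNAs named after their expression in pluripotent cells (chr2:104559184-104571429, plus strand). It had 4.53, 5.21 and 4.45 CPM in ko 1, ko 2 and ko 3 and 9.12, 8.47 and 9.27 CPM in p42, p43 and p56. The level was lower in all 3 ko clones, at 4.73 ± 0.418 against 8.95 ± 0.424 CPM (SD, n = 3). The log2 difference was -0.92 (SE 0.14, edgeR adjusted p 0.00447). This call was lost without ko 1, ko 2, ko 3, p42 or p43, with edgeR adjusted p of 0.0244, 0.0207, 0.0420, 0.0211 and 0.0116.

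**Figure D3:**
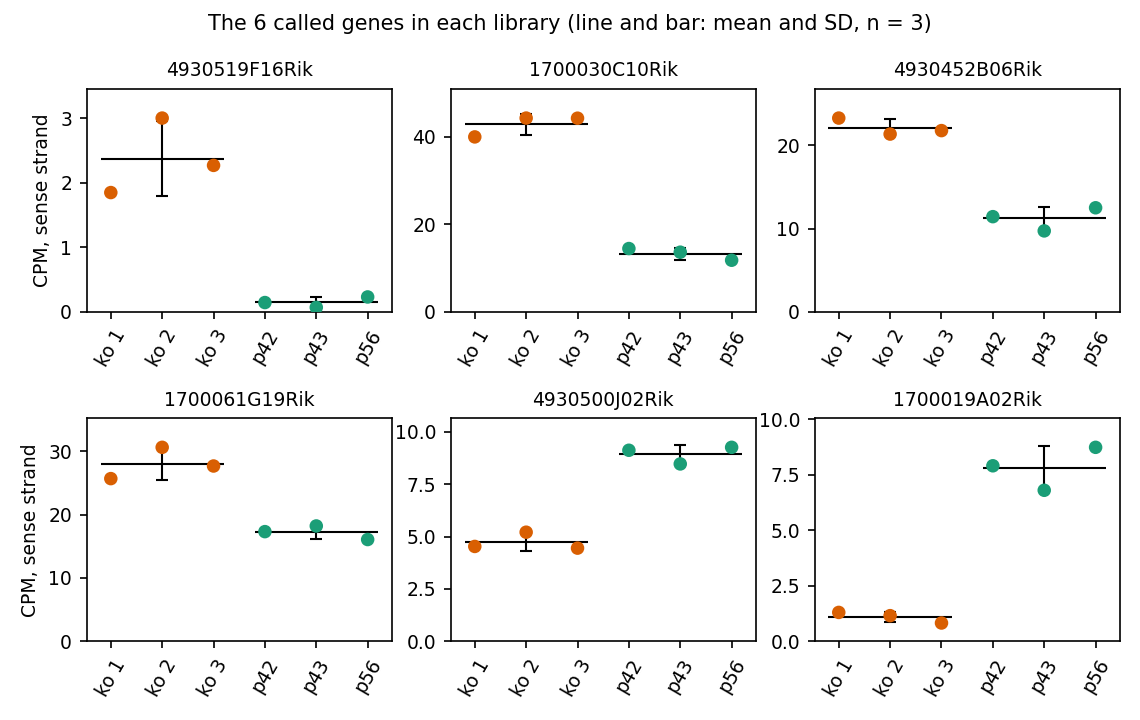
Each panel gives the sense-strand CPM of 1 of the 6 called genes in every library, with orange points for the ko clones, green points for the wild-type cultures and black lines and bars for the mean and SD of 3 libraries. The groups do not overlap in any panel; 1700030C10Rik lies at 40.0 to 44.3 CPM in ko and 11.8 to 14.5 CPM in wild type.

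Promoters of the 6 called genes are shown. Of the sequences searched there, only GTTGCC was shared by the genes that rose and absent from those that fell. This contrast was seen after the calls were known and was not tested. RefSeq promoter windows (GRCm38.p6) were matched to 85 of the 99 genes. They run from 250 bases before to 50 after a listed start, which need not be the end of the gene's span. The window of 4930500J02Rik lies wholly inside the span given above for that gene. The windows were searched on both strands for CACGTG (the E-box), TTCCCGC (the core letters of E2F sites), TGACGTCA (the full cyclic AMP response element) and GTTGCC. The last is a part of the site of RFX factors, which are known for driving genes of cilia and of the testis. Capitals mark the E2F letters and GTTGCC on either strand, and the latter reads GGCAAC in these lines where it lies on the opposite strand.
1700030C10Rik promoter, chr12:20815730-20816029, minus strand: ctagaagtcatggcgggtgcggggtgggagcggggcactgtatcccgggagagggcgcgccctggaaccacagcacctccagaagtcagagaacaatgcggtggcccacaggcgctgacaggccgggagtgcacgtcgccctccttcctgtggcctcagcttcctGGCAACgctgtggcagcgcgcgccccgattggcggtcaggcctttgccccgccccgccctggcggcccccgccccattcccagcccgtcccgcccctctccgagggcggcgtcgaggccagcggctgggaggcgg
4930452B06Rik promoter, chr14:8666241-8666540, minus strand: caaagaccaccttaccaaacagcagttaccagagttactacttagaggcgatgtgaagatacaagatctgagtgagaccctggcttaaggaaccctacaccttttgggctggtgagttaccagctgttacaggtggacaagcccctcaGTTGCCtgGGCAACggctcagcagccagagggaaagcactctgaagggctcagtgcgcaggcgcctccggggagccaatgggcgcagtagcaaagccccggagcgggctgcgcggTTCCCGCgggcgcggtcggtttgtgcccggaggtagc
1700061G19Rik promoter, chr17:56875234-56875533, plus strand: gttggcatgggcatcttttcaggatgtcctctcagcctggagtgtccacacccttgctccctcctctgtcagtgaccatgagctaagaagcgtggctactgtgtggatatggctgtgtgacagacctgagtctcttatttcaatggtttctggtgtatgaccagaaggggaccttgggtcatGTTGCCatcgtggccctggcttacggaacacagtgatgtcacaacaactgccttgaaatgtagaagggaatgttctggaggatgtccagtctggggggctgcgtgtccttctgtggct
4930519F16Rik promoter, chrX:103256556-103256855, minus strand: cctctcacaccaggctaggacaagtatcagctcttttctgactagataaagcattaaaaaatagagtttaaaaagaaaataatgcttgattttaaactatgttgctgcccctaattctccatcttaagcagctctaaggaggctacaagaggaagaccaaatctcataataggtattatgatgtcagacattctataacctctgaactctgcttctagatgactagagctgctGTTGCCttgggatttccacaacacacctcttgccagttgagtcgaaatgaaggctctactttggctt
1700019A02Rik promoter, chr1:53187568-53187867, minus strand: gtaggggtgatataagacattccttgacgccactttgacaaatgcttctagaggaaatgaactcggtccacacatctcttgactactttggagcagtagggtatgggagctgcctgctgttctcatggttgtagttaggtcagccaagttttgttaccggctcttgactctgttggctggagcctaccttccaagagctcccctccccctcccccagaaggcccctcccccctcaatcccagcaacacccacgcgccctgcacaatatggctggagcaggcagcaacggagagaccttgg
4930500J02Rik promoter, chr2:104559209-104559508, plus strand: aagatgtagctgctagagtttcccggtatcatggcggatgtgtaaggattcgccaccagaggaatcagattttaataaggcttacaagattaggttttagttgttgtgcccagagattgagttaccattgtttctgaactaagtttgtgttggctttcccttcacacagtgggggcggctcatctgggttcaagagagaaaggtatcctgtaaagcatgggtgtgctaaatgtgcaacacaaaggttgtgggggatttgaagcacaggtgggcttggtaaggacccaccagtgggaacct

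GTTGCC was present in the promoters of all 4 genes that rose, 1700030C10Rik, 4930452B06Rik, 1700061G19Rik and 4930519F16Rik, and in those of neither gene that fell. It occurred in 20 of the 102 promoter windows of the testis-library genes (19.6%), all kept for their read counts in ES cells. Among the 32851 windows of all genes, taken whatever their expression, 12.5% held GTTGCC. Most windows thus lacked it, so its absence from the 2 promoters of the genes that fell tells little. For 4930500J02Rik the window also held no sequence before the start of the gene's span. Whether the other genes with GTTGCC changed in ko was not tested. The RFX genes Rfx2 and Rfx3 of the cilium list had log2 fold changes of 0.039 and -0.034 (edgeR adjusted p 0.922 and 0.965). These values describe RNA only, and a part of RFX factors in the changes of the called genes was not tested. In 4930452B06Rik the letters stood as an inverted pair with 2 bases between them, in a promoter that also held TTCCCGC. Such a pair, searched after this promoter was seen, occurred in 31 of all 32851 windows (0.0944%). CACGTG was found in 11.8% of the windows of the testis-library genes and 7.15% of all windows, TTCCCGC in 7.84% and 4.60%, and TGACGTCA in 1.96% and 1.79%. Neither CACGTG nor TGACGTCA was present in the 6 windows shown. The promoter of 1700030C10Rik held 29 CG dinucleotides and that of 4930452B06Rik 16, whereas 1700019A02Rik, 1700061G19Rik, 4930500J02Rik and 4930519F16Rik had 6, 4, 4 and 1. The median was 16 for the testis-library genes and 7 for all promoters. These shares and medians set genes detected in ES cells beside promoters of all genes, silent ones included. Whether the testis-library genes differ in them from other genes detected in ES cells was not tested. A match of letters is a description of the sequence, and binding of a factor was not analysed here.

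Among the genes that were not called, the 8 with the smallest p were 6 coding genes and 2 lncRNAs. 1700019D03Rik (chr1:52922324-52992657) had 43.8, 38.2 and 44.6 CPM in ko 1, ko 2 and ko 3 and 30.2, 32.7 and 30.6 CPM in p42, p43 and p56. The groups did not overlap, and edgeR gave a log2 difference of 0.44 (SE 0.09, adjusted p 0.0191). DESeq2 called this gene (adjusted p 0.00588), and so did edgeR with no filter on low counts (adjusted p 0.00769) and without p56 (0.00447). It lies on the same chromosome as 1700019A02Rik, the gene with the strongest fall. 4921524J17Rik (chr8:85408759-85432841) had 288, 265 and 256 counts in ko and 448, 435 and 402 counts in wild type, or 24.4 ± 1.91 and 31.3 ± 1.02 CPM (SD, n = 3), with a log2 difference of -0.36 (edgeR adjusted p 0.0616). The groups did not overlap in this gene either. The lncRNA 1700108F19Rik had 6, 5 and 3 counts in ko against 15, 19 and 14 counts in wild type (log2 fold change -1.45, SE 0.39, edgeR adjusted p 0.0827).

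The level of the lncRNA 1700097N02Rik (chr17:30622441-30626905, minus strand) set p56 apart from the other wild-type cultures. It had 115, 133 and 126 counts in ko 1, ko 2 and ko 3, 99 and 120 counts in p42 and p43, and 32 counts in p56. In CPM the values were 10.6, 11.7 and 11.4 in ko, 7.17 and 8.40 in p42 and p43, and 2.47 in p56. The log2 fold change between ko and wild type was 0.89 (SE 0.29, edgeR adjusted p 0.174) and went to 0.53 (adjusted p 0.0246) without p56. Its start lies head to head, 30 bp apart, with that of Dnah8, a heavy chain of the dynein motors of cilia and sperm tails. Dnah8, whose values were looked up after those of 1700097N02Rik, had 623, 614 and 684 counts in ko, 642 and 714 counts in p42 and p43 and 279 counts in p56, the last being 21.5 CPM. Both genes of the pair were thus lowest in p56.

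The remaining genes with the smallest p among those not called were 4930503L19Rik, 1700029J07Rik, 1700018B08Rik and 4933402E13Rik. 4930503L19Rik had 23.2 ± 1.04 CPM in ko and 30.3 ± 4.71 CPM in wild type (SD, n = 3), with the highest value, 35.7 CPM, in p56. 1700029J07Rik and 1700018B08Rik had higher means in ko, with log2 fold changes of 0.93 and 0.78, and 4933402E13Rik on chromosome X a lower one of -0.73. Their edgeR adjusted p lay between 0.129 and 0.313. The groups did not overlap in any of the 4, which were picked by a small p, and in 19.9% of all tested genes. Among the 26 genes too low to be tested, the groups did not overlap in 3 (11.5%), against 16.8% of all 865 genes that had 30 or more counts and were not tested. Of these 3, 4930502E18Rik (now Ct55, a cancer/testis antigen gene, chosen after its values were seen) had 2, 5 and 0 counts in ko and 10, 8 and 21 counts in wild type.

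The p56 culture differed from p42 and p43 in a larger share of these genes than of all tested genes, which was not tested and which includes many genes with low counts. Its CPM was more than 1.5 times above or below the mean of p42 and p43 in 13 of the 73 genes (17.8%), 5 higher and 8 lower, and in 8.64% of all tested genes. The same limit between p42 and p43 was passed by 5 of the 73, for which no share over all tested genes is given here. Of the 13, 11 had fewer than 50 counts in every library, so their ratios carry a large counting error. The other two were 1700097N02Rik described above, with a ratio of 0.317, and 4930506M07Rik (now Shtn1, a gene for axon outgrowth, chosen after its values were seen), which had 49 and 46 counts in p42 and p43 and 87 in p56.

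Many of these genes share their place in the genome with other transcripts, so the nearest tested gene outside the list was taken for each. Of the 73 genes, 23 overlapped that neighbour, 44 lay within 5 kb of it and 68 within 100 kb, and 20 of the 99 genes started head to head with another gene within 1 kb. Next to the 6 called genes only Nap1l2 was called itself. Nap1l2 (chrX:103184176-103186653) had 2.11 ± 0.418 CPM in wild type and 8.80 ± 0.577 CPM in ko (SD, n = 3), and it rose by 2.05 on the log2 scale (SE 0.18, edgeR adjusted p 6.0e-05), beside the 3.93 of 4930519F16Rik. The mismatch repair gene Pms1, whose end lies 1.42 kb from the start of 1700019A02Rik, had a log2 fold change of -0.07 where 1700019A02Rik had -2.83. Asap2 (295.6 kb from 1700030C10Rik), Kctd6 (207.6 kb from 4930452B06Rik), Mllt1 (2.75 kb from 1700061G19Rik) and Cstf3 (19.1 kb from 4930500J02Rik) had log2 fold changes of -0.11, -0.29, 0.01 and -0.02. Their edgeR adjusted p lay between 0.212 and 0.984, with 0.695 for Pms1. The other called neighbour was 6030419C18Rik, which fell by 1.45 on the log2 scale next to 4930461G14Rik with 0.07. Across the 73 pairs, in which 1 gene can be the neighbour of more than 1 member and which come from the same libraries, Pearson's r was 0.43 and Spearman's rho 0.20, and r was 0.07 without 4930519F16Rik.

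**Figure D4:**
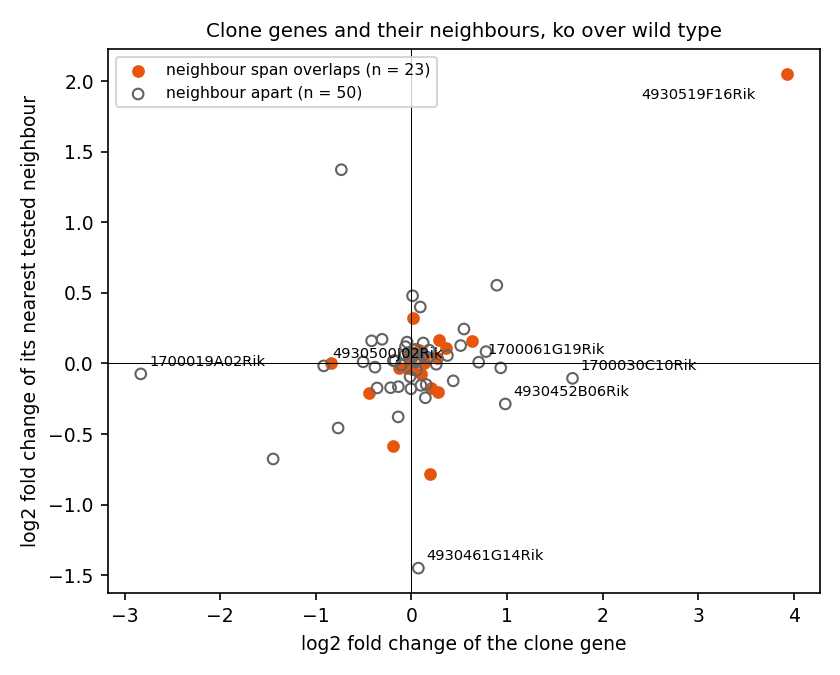
Each of the 73 points sets the log2 fold change (Morc3 ko over wild type) of a clone gene against that of its nearest tested neighbour, filled where the spans overlap (n = 23) and open where they do not (n = 50). 4930519F16Rik and Nap1l2 lie alone at the upper right, at 3.93 and 2.05, and the neighbours of the other 5 called genes lie between -0.29 and 0.01.

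The libraries keep the strand of the RNA, so the reads on the strand opposite to each gene were examined as well. In these genes opposite-strand counts made up a median of 1.45% of the counts of both strands, beside 0.167% over all genes with 30 or more sense counts. The share was above 50% in 13 of the 99 genes (13.1%), against 230 of all 13087 such genes (1.76%). The share depends on the sense level, and the median of summed sense counts was 128 in the 99 genes and 1552 over all such genes. A comparison at matched level was not made. Genes that overlap a gene of the other strand had the higher shares. The median was 15.7% in the 35 genes that overlap one, 12 of which were above 50%, and 0.328% in the 64 that do not, of which 1, 1700008J07Rik, was. The coding genes had a median of 0.492% and the noncoding ones of 11.6%.

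The highest shares were those of 4 lncRNAs. For 4930414L22Rik (now Particl, at chr6:72438683-72440615), which overlaps the methionine adenosyltransferase gene Mat2a, 3771 of 3844 counts (98.1%) lay on the opposite strand, and 73 on its own. 1700034P13Rik overlaps the deubiquitinase gene Vcpip1 and had 92.1%, 4930513N10Rik overlaps Cnot1, the scaffold of the CCR4-NOT complex, and had 92.0%, and 1700034H15Rik overlaps the zinc exporter gene Slc30a1 and had 89.9%. In ko and wild type the shares were 98.0% and 98.2% for 4930414L22Rik and 88.7% and 90.9% for 1700034H15Rik. The sense counts were small in all 4 genes, with 0.545 to 1.59 CPM in ko and 0.585 to 1.51 CPM in wild type. 20 of the 99 genes could be tested in the opposite-strand counts and 0 were called by edgeR's quasi-likelihood test, where 0.508% of the 1378 genes tested there were. Of the 20, 0 had an unadjusted p under 0.05, and the smallest edgeR adjusted p was 0.670. DESeq2 called 0 of these genes as well, with 1 at an unadjusted p under 0.05.

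**Figure D5:**
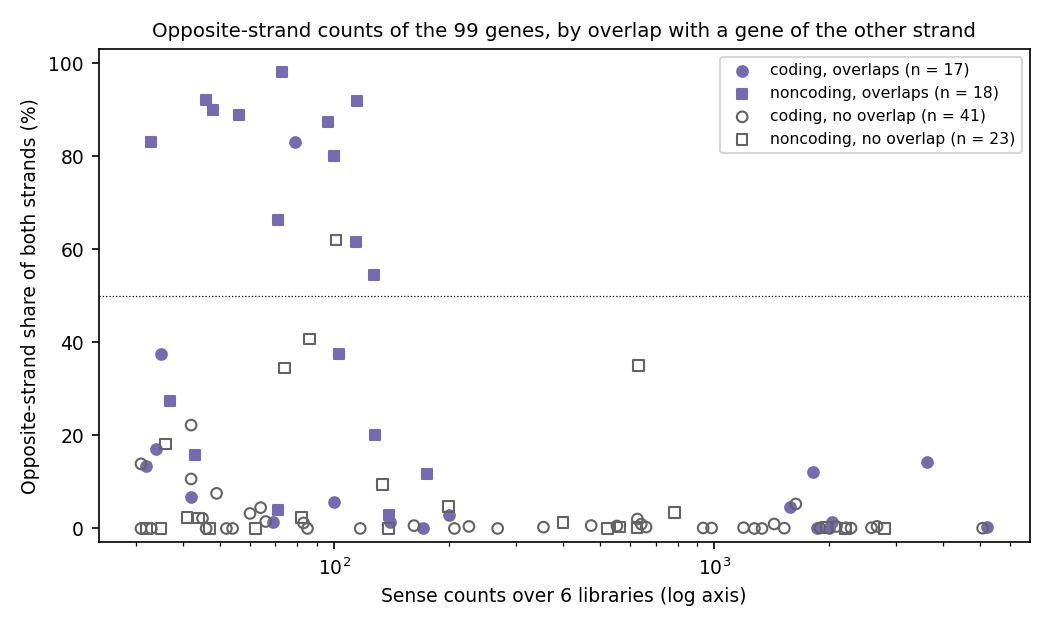
Each of the 99 genes is placed by its sense counts over 6 libraries (log axis) and by the opposite-strand share of the counts of both strands (%), with circles for coding and squares for noncoding genes, filled where the gene overlaps one of the other strand. The 13 genes above the dotted line at 50% are 1 coding and 12 noncoding genes, 12 of them filled, and all have at most 127 sense counts.

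Other genes that testis libraries are rich in were taken as a background for these levels. Of 14 markers of spermatogenic cells, 7 were at 0 in all libraries, among them the protamines Prm1 and Prm2 and the transition proteins Tnp1 and Tnp2, and 5 could be tested. Their summed level was 27.3 to 29.6 CPM in ko and 37.9 to 57.1 CPM in wild type, most of it from the germ cell helicase Ddx4 with 20.1 ± 0.839 and 33.0 ± 7.45 CPM (SD, n = 3). The 5 had log2 fold changes from -0.94 to 0.30 and edgeR adjusted p from 0.0182. 3 of them had an unadjusted p under 0.05, 0 were called by edgeR and 1 by DESeq2. Of 27 genes of the cilium and the sperm tail, 25 were found by symbol among the counted genes and 12 could be tested. The 12 had log2 fold changes from -1.14 (Ccdc39) to 0.55 (Dnah8), a median of -0.16 and edgeR adjusted p from 0.166. 5 of them had an unadjusted p under 0.05, and 0 were called by edgeR or DESeq2. Over all tested genes 14.3% had an unadjusted p under 0.05, a lower share than in these lists of spermatogenic and cilium genes. The difference in shares was not tested. The 9 ES cell markers summed to 6113 to 6218 CPM in ko and 5588 to 5721 CPM in wild type, with a median log2 fold change of 0.037. Most of the gap came from Dppa5a, with 1369 ± 21.3 and 1017 ± 146 CPM, and Zfp42, with 1463 ± 56.9 and 1316 ± 36.4 CPM (SD, n = 3). Their edgeR adjusted p were 0.0231 and 0.207. Of the 9 markers 2 had an unadjusted p under 0.05, 0 were called by edgeR and 1 by DESeq2. Of 6 fibroblast markers Thy1 was the only one with enough counts, and it fell by 0.86 on the log2 scale (edgeR adjusted p 0.00640), while Col1a1, Col1a2, Col3a1, Lum and Dcn had 0 to 29 counts each. The part of any other cell type in the changes of the clone genes was not tested.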

How the data were processed

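RNA-seq libraries of 3 clones of Morc3 ko ES cells and 3 cultures of wild-type cells were analysed. Per the labels and the methods of the study, total RNA was treated with DNase, depleted of ribosomal RNA and made into strand-specific libraries, and the authors counted reads per gene with STAR on mm10. The annotation they counted on is not given in the sources used here. The deposited counts are raw and not pooled, in 3 columns per library (both strands, 1 strand, the other); the column with the larger total was taken as the sense strand. Sense counts summed to 10740618 to 14123131 per library and opposite-strand counts to 136615 to 172743, so genes with few counts carry large counting error. STAR counts only reads that map to 1 place and 1 gene.

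Counts were tested with edgeR 4.0.16 (quasi-likelihood, TMM, filterByExpr with minimum count 10 and minimum total 15, group only, R 4.3.3). Two-sided p-values were adjusted by Benjamini-Hochberg over all tested genes, and genes under 0.01, the study's threshold, were called. CPM uses TMM-scaled library sizes, and log2 fold changes a prior count of 0.125. The SE given with an edgeR log2 fold change is its absolute value divided by the square root of the test's F statistic. The p-values measure the spread between these clones and cultures, which are replicates of different kinds. The ko libraries came from single clones and the wild-type libraries from cultures of the line WT26. Effects of cloning and of Morc3 loss can therefore not be told apart. Intervals of count ratios are exact binomial at 95%. DESeq2 1.42.0, limma-voom (limma 3.58.1) and the other settings of the closing section were alternatives. The scripts were tested on simulated data. Symbols matched a RefSeq gene table (GRCm38.p6) directly for 22539 rows and by an older symbol for 1334, and 181 were not matched. Strand and exon length came from GENCODE M21, and 94 of the 99 genes had a length. Spans of a RefSeq row can take in overlapping transcripts.

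The genes and lists were chosen with earlier results of these data known. Named are Morc3, every called gene, the 8 next by p, the 8 with the highest mean CPM, the 4 with the highest opposite-strand share at 100 or more counts, the 2 on each side of the limit of 30 counts (3 rows had 29), and the nearest tested neighbour of each called gene. Names of the marker lists come from those lists. The other genes given with values (4930444M15Rik, 1700001G11Rik, 1700008J07Rik, 4930461G14Rik, 4930502E18Rik, 4930506M07Rik, 6030419C18Rik and Acsbg2) were chosen after their values were seen.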

Additional observations from a re-analysis of the deposited data

How the results depend on the processing

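The count of 6 called testis-library genes stayed between 4 and 7 in every setting tried. It was 7 by DESeq2, with no filter, without p56 and at an adjusted p under 0.05, and leaving out 1 library at a time gave 4 to 7. 1700030C10Rik, 1700019A02Rik, 4930519F16Rik and 4930452B06Rik were called in all 14 other fits. Raising the limit to 100 counts gave 5 calls among 58 tested, and lowering it to 10 or adding 2 further starts of testis libraries gave 6. The median log2 fold change of the list was 0.015 by DESeq2 and 0.0066 with no filter, which include more low genes. Over all tested genes the 156 calls became 254 by DESeq2, 286 with no filter, 331 at an adjusted p under 0.05 and 72 to 385 with 1 library left out, where 385 was the count without p56. The cause of the change by DESeq2 was not tested. The 4 calls among other RIKEN clone genes became 7 at an adjusted p under 0.05 and 2 to 7 with 1 library left out. The opposite-strand count of 0 did not move, with 0 to 2 genes at an unadjusted p under 0.05. Changes near 0 turned sign. With 1 library left out, the log2 fold change ranged from -0.048 to 0.029 for 1700052N19Rik, -0.12 to 0.054 for 1700001L05Rik, -0.23 to 0.015 for 4933411K20Rik, -0.052 to 0.053 for Mllt1 and -0.080 to 0.041 for Cstf3, and with library size only that of Mllt1 was -0.015. The cause was not tested. Morc3 had an adjusted p of 0.0184 in edgeR's robust fit and was called in the 13 other fits. No paired analysis was possible because ko clones and wild-type cultures carry different numbers in the labels.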
